A study of Mus musculus with 4 samples.

Results

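The mitochondrial ribosomal protein genes of 4T1 cells, a mouse mammary carcinoma line, were examined after treatment with recombinant IL-17A. They were taken by name: every gene in the table whose Ensembl identifier belongs to a protein-coding gene with a symbol made of Mrpl or Mrps and a number. This gave 77 genes of 21840, of which 48 have an Mrpl symbol (large subunit) and 29 an Mrps symbol (small subunit). The annotation holds 78 such genes, and the remaining one, Mrpl53, was not analysed here. Values did not enter this rule, which was set with earlier results of these data known.

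The tested libraries came from 4T1 cells given recombinant IL-17A (rIL17, 2 libraries) and were set against libraries from 4T1 cells given phosphate-buffered saline (PBS, 2 libraries). All 4 carry a wild-type label and share the culture medium. They come from a single cell line, and the labels used here give neither dose nor time, nor whether each library had a culture of its own. From the title, the study asked about osteopontin made by tumor cells under IL-17A, a T cell cytokine that acts on epithelial cells.

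Mitochondria keep their own ribosome, which translates the few mRNAs of the mitochondrial genome, all of which encode respiratory chain or ATP synthase subunits. Its ribosomal RNAs are made inside the organelle, whereas its proteins are encoded in the nucleus, made in the cytosol and imported. The small subunit reads the mRNA, and the large subunit joins the amino acids and passes the new protein into the inner membrane. Some of the proteins have a bacterial counterpart, and others are found only in mitochondrial ribosomes.

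Values are normalized counts, which are reads per gene divided by 1 factor per library. The rIL17 libraries held 17911079 and 17715520 reads in genes, and the PBS libraries 17970104 and 17511450. The labelled epithelial identity was checked with 6 markers (Krt8, Krt18, Epcam, Cdh1, Krt7 and Krt19), all detected, which summed to 45711 and 47763 in rIL17 and to 53688 and 57922 in PBS. Leukocyte markers were near 0: of 6, 2 were in the table and they summed to 14.1 and 4.01 in rIL17 and to 2.94 and 0.994 in PBS, with Ptprc at 0 in both PBS libraries. Of 6 fibroblast and endothelial markers, 5 were in the table, with sums of 2891 and 2901 in rIL17 and 2387 and 2509 in PBS, nearly all from Pdgfra. The part of any such markers in the results was not tested.

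No mitochondrial ribosomal protein gene passed the test, and most were slightly lower in rIL17. All 77 had a mean of at least 10 normalized counts and were tested with limma on log2(normalized count + 1) among 13479 genes. The smallest Benjamini-Hochberg adjusted p was 0.19, for Mrpl4, so 0 of 77 passed at 0.05, against 0.764% of all genes tested. limma-voom also called 0 of 77, against 1.01% of all genes. At an unadjusted p below 0.05 there were 4 members (Mrps11, Mrpl4, Mrpl57 and Mrpl20, all lower in rIL17), a share below the 16.0% of all genes.

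The estimated log2 fold change was below 0 for 64 of the 77 members, or 83.1%, and for 50.4% of all genes tested. Its median over the members was -0.11, which is 7.20% lower in rIL17, and the median of all genes was 0.00 to the same precision. The lower and upper quartiles of the members lay at -0.15 and -0.04. The limma 95% intervals of all 77 members lay within a 2-fold change in either direction, and those of 76 within 1.5-fold, the exception being Mrps18c. In these bulk libraries, less RNA per cell and fewer cells that carry it cannot be told apart.

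The direction was weaker against PBS replicate 1 alone. Summed over the 77 genes, rIL17 had 60241 and 60023 normalized counts and PBS had 61965 and 66884. The sums are 0.335% and 0.338% of all normalized counts in rIL17 and 0.351% and 0.384% in PBS. Both rIL17 sums were below both PBS sums, and PBS replicate 2 stood well above the other 3 libraries. The PBS libraries differed from each other by about as much as the groups did: the median log2 difference between PBS replicate 2 and PBS replicate 1 was 0.11, with 63 of 77 genes higher in replicate 2, while rIL17 replicate 2 minus replicate 1 gave -0.02. PBS replicate 2 held the highest value of the 4 libraries for 57 of the 77 genes, or 74.0%, and for 33.8% of all genes tested.

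Without PBS replicate 2, 49 of 77 members were lower in rIL17, the median was -0.05 and 0 members passed, against 2.10% of all genes. Without PBS replicate 1, 66 were lower and the median was -0.16. In that last fit, in which the lone PBS library is assumed to vary like the rIL17 libraries, 9 members passed: Mrpl4, Mrpl12, Mrpl20, Mrpl27, Mrpl54, Mrpl57 and Mrps16 lower, and Mrpl18 and Mrpl50 higher. The share of all genes called in the same fit was 16.1%. Every rIL17 value was below every PBS value for 35 of the 77 genes, or 45.5%, against 24.7% of all genes. Every rIL17 value was above every PBS value for 6 genes, or 7.79%, against 25.4% of all genes.

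**Figure D1:**
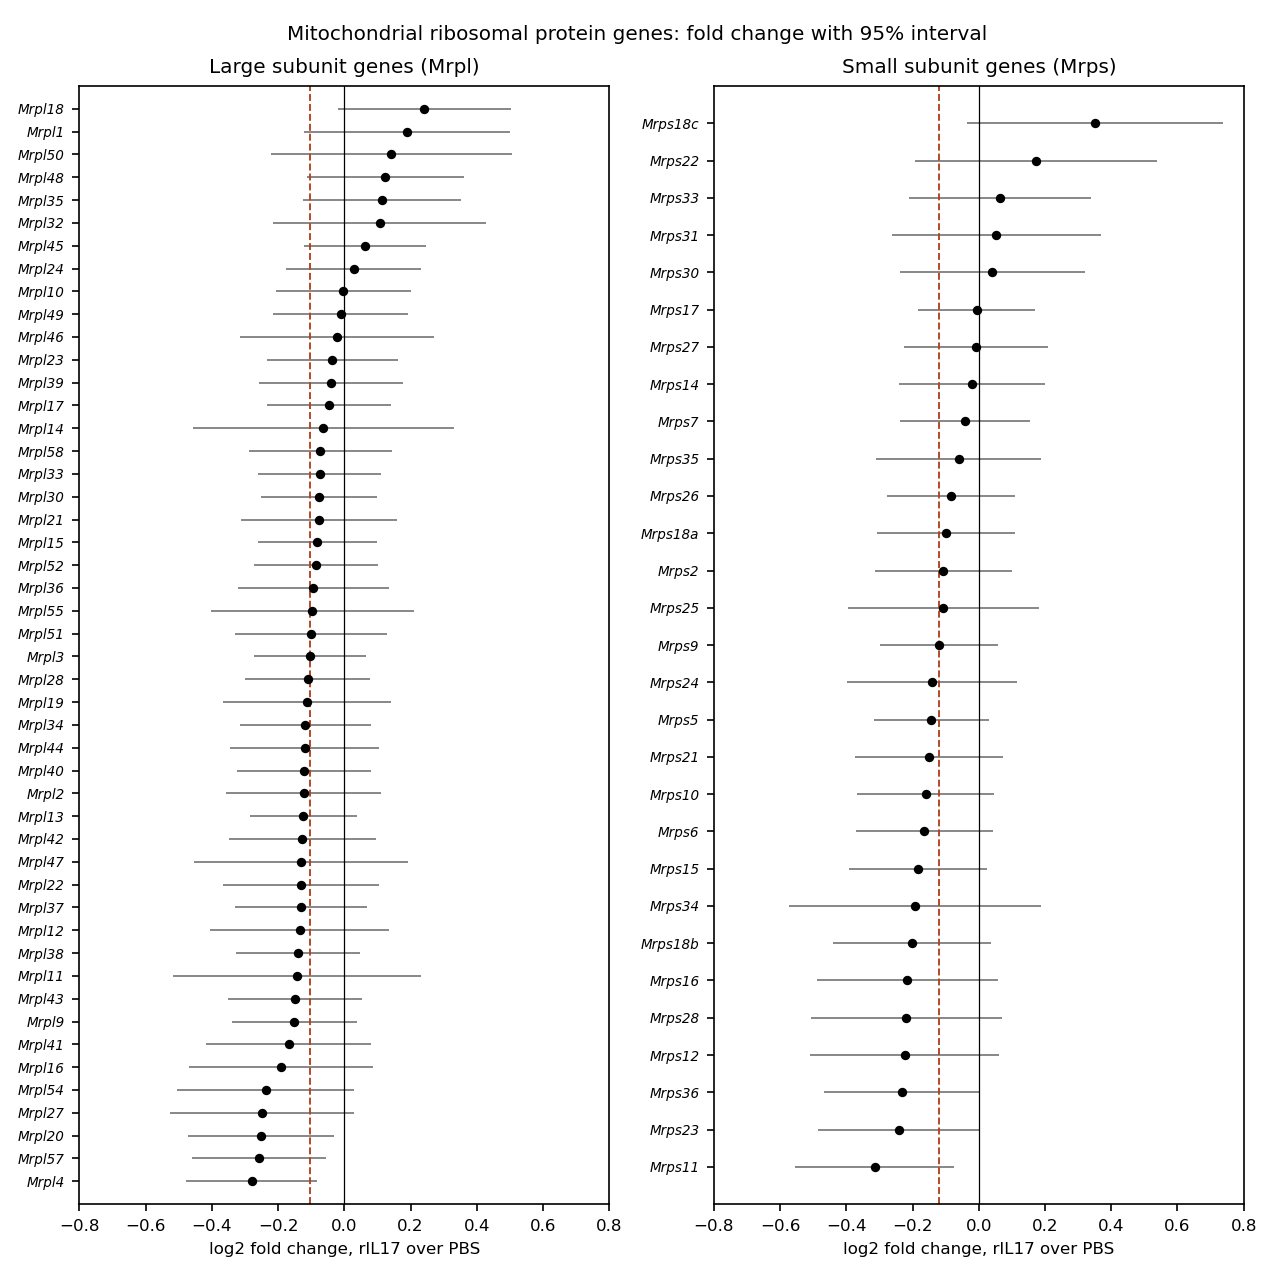
Log2 fold change (rIL17 over PBS, horizontal axis) of the 48 large subunit and 29 small subunit genes, with limma's 95% interval as a line; the dashed line is the median of each subunit, -0.10 and -0.12. Most points lie left of 0, and nearly all intervals cross it.

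The medians of large and small subunit genes were close, both below 0. Of the large subunit genes, 40 of 48 were lower in rIL17, with a median of -0.10. Of the small subunit genes, 24 of 29 were lower, with a median of -0.12. The medians differed by 0.02 on the log2 scale, and the same difference varied between replicate libraries with an SD of 0.02. With GC correction the medians differed by 0.039, and by 0.014 to 0.063 in the fits that leave out a library, so the size of the difference depends on the setting. The small subunit had the lower median in each of these. Every rIL17 value was below every PBS value for 21 of the 48 large (43.8%) and 14 of the 29 small subunit genes (48.3%). The share over all genes tested was 24.7%. Every rIL17 value was above every PBS value for 5 large (10.4%) and 1 small subunit gene (3.45%), against 25.4% of all genes.

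Large subunit genes summed to 41083 and 41037 normalized counts in rIL17 and to 42185 and 45590 in PBS. Small subunit genes summed to 19157 and 18986 in rIL17 and to 19780 and 21294 in PBS. The ratio of the large to the small sum was 2.145 and 2.161 in rIL17 (2.153 ± 0.012, SD, n = 2) and 2.133 and 2.141 in PBS (2.137 ± 0.0058, SD, n = 2). Both rIL17 ratios were above both PBS ratios, by a margin smaller than the gap between the rIL17 libraries. With 2 libraries against 2, the smallest two-sided p of an exact permutation test is 0.333, so no p was sought. The sums of both subunits were highest in PBS replicate 2, while the ratio was not.

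**Figure D2:**
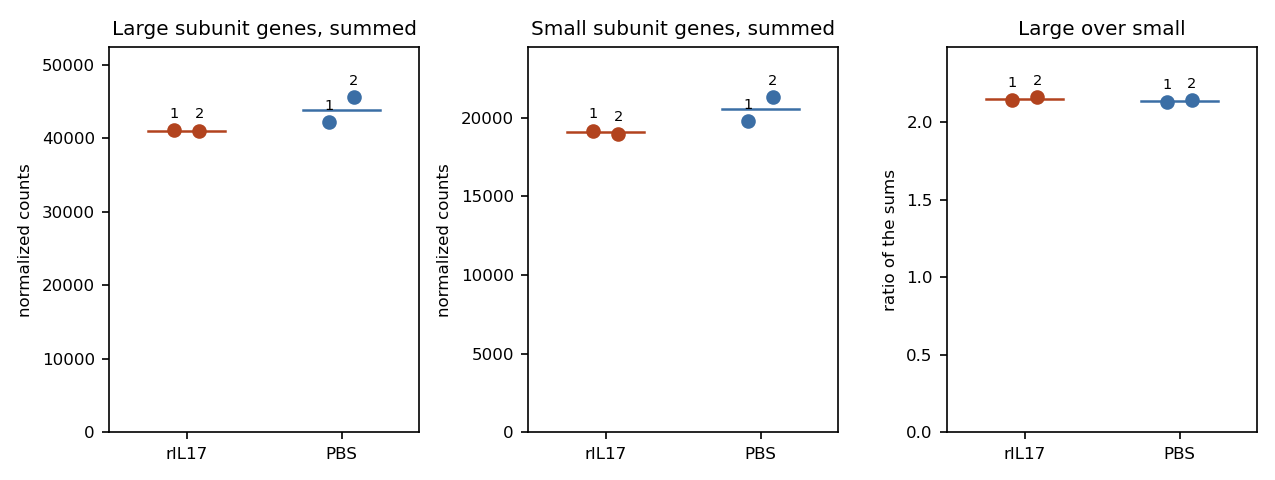
Sums of normalized counts over large subunit genes and over small subunit genes, and the ratio of these sums, in each library (points, labelled with the replicate number; lines are means of 2). PBS replicate 2 is the highest library in both sums, and the ratio stays between 2.13 and 2.16.

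The symbols do not follow the assembled ribosome for 3 members. The proteins of Mrps18a and Mrps30 sit in the large subunit, and Mrps36 encodes a component of the alpha-ketoglutarate dehydrogenase complex. With members placed by position, 41 of 50 large subunit genes were lower (median -0.10) and 22 of 26 small subunit genes (median -0.13). Small subunit genes with a bacterial counterpart were lower in 15 of 16 cases, with a median of -0.15, and those specific to mitochondria in 7 of 10, with a median of -0.07. In the large subunit, 25 of 30 genes with a bacterial counterpart and 16 of 20 specific to mitochondria were lower, each set with a median of -0.10. Without PBS replicate 2 the small subunit genes specific to mitochondria turned direction, with 4 of 10 lower and a median of 0.03. In that fit the small subunit genes with a bacterial counterpart were lower in 11 of 16 cases (median -0.09), and the large subunit sets in 18 of 30 (-0.03) and 15 of 20 (-0.05). After GC correction the 4 medians lay between -0.10 and -0.02. These subsets are given as descriptions, without a test between them.

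Mrps11 had the lowest fold change. It encodes the counterpart of bacterial S11, a protein of the small subunit's platform, and lies at chr7:78783119-78792989 on the plus strand (mm10, ENSMUSG00000030611). It had 325 and 316 normalized counts in rIL17, against 396 and 401 in PBS. The groups did not overlap and the PBS libraries were close, so the value was the same without PBS replicate 2 (-0.31). The log2 fold change was -0.31 ± 0.10 (SE), with a limma adjusted p of 0.215. With GC correction Mrps11 was at -0.20 (limma adjusted p = 0.376). Over the fits that leave out a library, with or without GC correction, it ranged from -0.334 to -0.146. Its start lies 42 bases from that of Mrpl46, a large subunit gene on the other strand, by the RefSeq starts. Mrpl46 had 316 and 275 in rIL17 and 289 and 309 in PBS, which overlap, with a log2 fold change of -0.02 ± 0.12. The exons of the pair overlap over 7.97% of those of Mrps11.

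The highest fold change was that of Mrps18c, also in the small subunit, at chr5:100798627-100804471 on the plus strand (ENSMUSG00000016833). Its counts were 267 and 228 in rIL17, against 216 and 173 in PBS, with no overlap. The log2 fold change was 0.35 ± 0.16 (SE, limma adjusted p = 0.349), and 0.19 without PBS replicate 2. Of its exon bases, 23.2% overlap the gene model Gm43511 on the same strand, with which reads may be shared.

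The promoters of these genes, which stand at opposite ends of the range, are shown from 250 bases before to 50 after the RefSeq start (GRCm38.p6, plus strand). In the Mrps11 window, chr7:78782881-78783180, the first capitals mark the YY1 motif AAGATGGC on the other strand and the second the GC box GGGCGG. In the Mrps18c window, chr5:100798509-100798808, the first capitals hold the E-box CACGTG and, overlapping no base of it, the ETS motif CCGGAAGT on the other strand, and the last mark GGGCGG.
Mrps11: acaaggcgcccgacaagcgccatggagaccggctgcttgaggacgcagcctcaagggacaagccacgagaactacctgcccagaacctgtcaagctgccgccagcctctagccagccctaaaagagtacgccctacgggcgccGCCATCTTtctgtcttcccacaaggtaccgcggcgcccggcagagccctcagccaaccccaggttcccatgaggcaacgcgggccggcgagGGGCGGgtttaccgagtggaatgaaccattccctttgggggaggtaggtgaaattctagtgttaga
Mrps18c: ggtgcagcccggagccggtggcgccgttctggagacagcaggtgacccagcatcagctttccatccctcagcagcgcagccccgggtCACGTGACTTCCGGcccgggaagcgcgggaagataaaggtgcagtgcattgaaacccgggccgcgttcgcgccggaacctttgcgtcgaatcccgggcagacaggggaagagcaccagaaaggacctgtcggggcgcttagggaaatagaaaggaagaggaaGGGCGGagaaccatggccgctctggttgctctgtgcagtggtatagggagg

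Promoter windows of the same length were at hand for 68 of the 77 members and for 9161 tested protein-coding genes, searched on both strands. The YY1 motif AAGATGGC was in 12 member windows (17.6%) and in 4.97% of all windows. The ETS motif CCGGAAGT, bound by GABP, was in 11 (16.2%) and in 9.13% of all windows. The motif of the nuclear respiratory factor NRF1 was in 3 (4.41%) and in 2.22%. GGGCGG was in 34 of the 68 and in 66.6% of all windows, and CACGTG in 5 (7.35%) and in 10.3%. The YY1 motif was in 6 of 42 large and 6 of 26 small subunit windows. The median log2 fold change was -0.10 in members with the YY1 motif and -0.11 in those without it. For the ETS motif these medians were -0.08 and -0.11. Letters matched in a window are not evidence that a factor binds there.

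A protein-coding gene started on the other strand within 1000 bases for 33 of the 77 members (42.9%), and for 17.1% of the tested protein-coding genes. Some neighbours, chosen after their values were seen, also serve mitochondria, and those named here were lower in rIL17 except Ptcd2. Mrps12 (-0.22) neighbours Sars2 (-0.15), a mitochondrial seryl-tRNA synthetase, and Mrpl36 (-0.09) neighbours Ndufs6 (-0.32), a complex I subunit, these values being log2 fold changes. Mrpl43 (-0.15) neighbours Twnk (-0.11), the helicase of mitochondrial DNA replication. Mrpl47 (-0.13) neighbours Ndufb5 (-0.08), another complex I subunit. Mrps27 (-0.01) neighbours Ptcd2 (0.12), a mitochondrial RNA-binding protein. No gene of these pairs passed the test.

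Among large subunit genes, the lowest fold changes belonged to Mrpl4, Mrpl57, Mrpl20 and Mrpl27. Mrpl4, whose bacterial counterpart L4 lines the tunnel through which the new protein leaves, had 1217 and 1282 normalized counts in rIL17, against 1438 and 1600 in PBS (log2 fold change -0.28 ± 0.08 SE, limma adjusted p = 0.19). Mrpl57, found only in mitochondrial ribosomes, had 733 and 741 in rIL17, against 843 and 921 in PBS (-0.26 ± 0.08). Both genes were separated between the groups, and were at -0.20 and -0.19 without PBS replicate 2. With GC correction Mrpl4 was at -0.17 and Mrpl57 at -0.47 (limma adjusted p = 0.242 and 0.0916), so Mrpl57 moved further below 0 there. Mrpl20 had 757 and 799 in rIL17, against 873 and 983 in PBS (-0.25 ± 0.09). Mrpl27, whose bacterial counterpart reaches the catalytic centre, had 533 and 537 in rIL17, against 575 and 702 in PBS (-0.25 ± 0.12). Mrpl20 and Mrpl27 were separated between the groups as well. Without PBS replicate 2, Mrpl20 was at -0.17 and Mrpl27 at -0.10, so all these fold changes were smaller in that fit.

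On the higher side of the large subunit were Mrpl18, Mrpl1, Mrpl50 and Mrpl48. Mrpl18, the counterpart of bacterial L18 in the central protuberance, had 748 and 685 normalized counts in rIL17, against 655 and 559 in PBS (log2 fold change 0.24 ± 0.11, limma adjusted p = 0.344). Mrpl1, of the mobile stalk near the tRNA exit, had 367 and 359 in rIL17, against 352 and 287 in PBS (0.19 ± 0.13). For both genes all rIL17 values were above all PBS values, but without PBS replicate 2 the fold changes were smaller, at 0.13 and 0.04. Mrpl50 had 676 and 633 in rIL17, against 692 and 507 in PBS, so its groups overlapped, and its value of 0.14 became -0.08 without PBS replicate 2. Mrpl48 had 398 and 414 in rIL17, against 381 and 365 in PBS (0.12 ± 0.10). How reads were divided between Mrpl48 and its processed pseudogene Mrpl48-ps, given in the closing section, was not tested.

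Members chosen for their role were mixed. Mrpl12, of the stalk that recruits translation factors, had 1309 and 1317 normalized counts in rIL17, against 1288 and 1613 in PBS. Mrpl11, at the base of that stalk, had 581 and 528 in rIL17, against 523 and 715 in PBS. Both had negative log2 fold changes (-0.13 and -0.14) that turned to 0.03 and 0.08 without PBS replicate 2, the library with the highest value. Mrpl44, which has a ribonuclease III-like fold, had 476 and 452 in rIL17, against 517 and 492 in PBS, with no overlap (-0.12 ± 0.09).

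Mrpl45, which in human mitochondria helps anchor the ribosome at the inner membrane, was slightly higher in rIL17, with 944 and 970, against 894 and 940 in PBS (0.06 ± 0.08). Mrpl58, a peptidyl-tRNA hydrolase built into the large subunit that can release stalled chains, had 617 and 647 in rIL17, against 637 and 693 in PBS (-0.07 ± 0.09). Each gene's 95% interval included 0, from -0.12 to 0.25 for Mrpl45 and from -0.29 to 0.14 for Mrpl58. Without PBS replicate 2 the values were 0.10 and -0.01.

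In the small subunit, Mrps12, the counterpart of the bacterial decoding-centre protein S12, had 273 and 277 normalized counts in rIL17, against 300.2 and 344 in PBS (-0.22 ± 0.12). Mrps2 had 887 and 972 in rIL17, against 1035 and 966 in PBS (-0.11 ± 0.09), and these overlapped. Mrps23, specific to mitochondria, had 595 and 558 in rIL17, against 637 and 729 in PBS (-0.24 ± 0.10). When PBS replicate 2 was left out, Mrps12 was at -0.13 and Mrps23 at -0.14. Mrps22, also specific to mitochondria, had 336 and 261 in rIL17, against 275 and 251 in PBS. Its value of 0.17 ± 0.15 rests on rIL17 replicate 1, without which it was -0.01.

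Mrps34 had 357 and 490 in rIL17, against 464 and 492 in PBS, so rIL17 replicate 1 alone was low (-0.19 ± 0.16, and 0.04 without that library). Of its exon bases, 63.4% are overlapped by Mapk8ip3 on the other strand and 37.0% by Nme3 on the same strand. Libraries were made with a directional kit, but the strand setting of the counting is not given in the sources used here. Exons of 8 members were overlapped on the other strand over more than 20% of their bases, among them Mrps25 (69.8%, by Nr2c2), Mrpl43 (by Twnk) and Mrps18b (by Gm16279), and their counts are uncertain to that extent.

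The S18 paralogs, of which mammals have a set where bacteria have a single S18, did not share a direction. In the split by origin above, only Mrps18c was placed with a bacterial counterpart, and Mrps18a and Mrps18b were counted as specific to mitochondria. Mrps18a had 683 and 672 normalized counts in rIL17, against 696 and 757 in PBS, and Mrps18b had 402 and 387 in rIL17, against 437 and 472 in PBS. Both were lower in both rIL17 libraries (-0.10 ± 0.09 and -0.20 ± 0.10), whereas Mrps18c was higher, as given above. None passed the test, and the difference between the paralogs was not tested. Mrps30 had 388 and 352 in rIL17, against 382 and 338 in PBS (0.04 ± 0.12). When PBS replicate 2 was left out, Mrps18a was at -0.04 and Mrps30 at -0.05. Mrps36, the dehydrogenase component, had 355 and 351 in rIL17, against 408 and 422 in PBS (-0.23 ± 0.10).

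RNA levels of the members spanned a wide range. Per kilobase of exon, the level (mean of the 4 libraries) had a median of 326 normalized counts for large and 216 for small subunit genes. The highest large subunit genes were Mrpl52, Mrpl34 and Mrpl2, at 1129, 1092 and 1046 normalized counts per kilobase. In the small subunit the highest were Mrps21, Mrps24 and Mrps28, at 804, 712 and 654. The lowest were Mrpl48 and Mrpl32, at 47.8 and 61.0, and Mrps30 and Mrps22, at 54.7 and 70.3.

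These ranks depend on the length used, since exons of all transcripts of a gene were joined. Per kilobase of the principal transcript, Mrpl34 moved to rank 12 and Mrpl2 to rank 8 of 48, while Mrpl52 was at rank 2. Mrps21 and Mrps24 stayed at ranks 1 and 2 of 29, and Mrpl48 stayed last in the large subunit, while Mrps28 moved from rank 3 to 7 and Mrps22 from rank 28 to 24. None of these genes passed between the groups: Mrpl52, for example, had 1172 and 1259 normalized counts in rIL17, against 1250 and 1330 in PBS, and Mrps21 had 573 and 553 in rIL17, against 596 and 656 in PBS.

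The fold change moved with base composition. Over the 77 members, the log2 fold change and the GC content of the longest transcript had a Pearson r of -0.38 and a Spearman rho of -0.37, and over 13470 genes r was -0.42, all within the same 4 libraries. Below 45% GC, the median log2 fold change was -0.03 over 20 members, against 0.23 for all genes in that range. The 15 members at 55% GC or above were all lower in rIL17, with a median of -0.14, against -0.06 for all genes there. The difference between PBS replicates 2 and 1 also moved with GC, with r of 0.37 over the members.

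After a loess correction of each library for GC content, 57 of 77 members were lower, with a median of -0.07, against 0.04 for all genes. The median of the members relative to all genes was -0.10 with and -0.11 without the correction. The correction did not remove the relation with GC among the members: r was 0.48 and rho 0.46 over the 77 corrected fold changes, opposite in sign to before. In the corrected fit 1 member passed, Mrps9 (-0.62, limma adjusted p = 0.0448), against 2.17% of all genes. It did not pass when GC was taken from the principal transcript, and without correction it had 1127 and 1060 normalized counts in rIL17, against 1201 and 1177 in PBS.

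**Figure D3:**
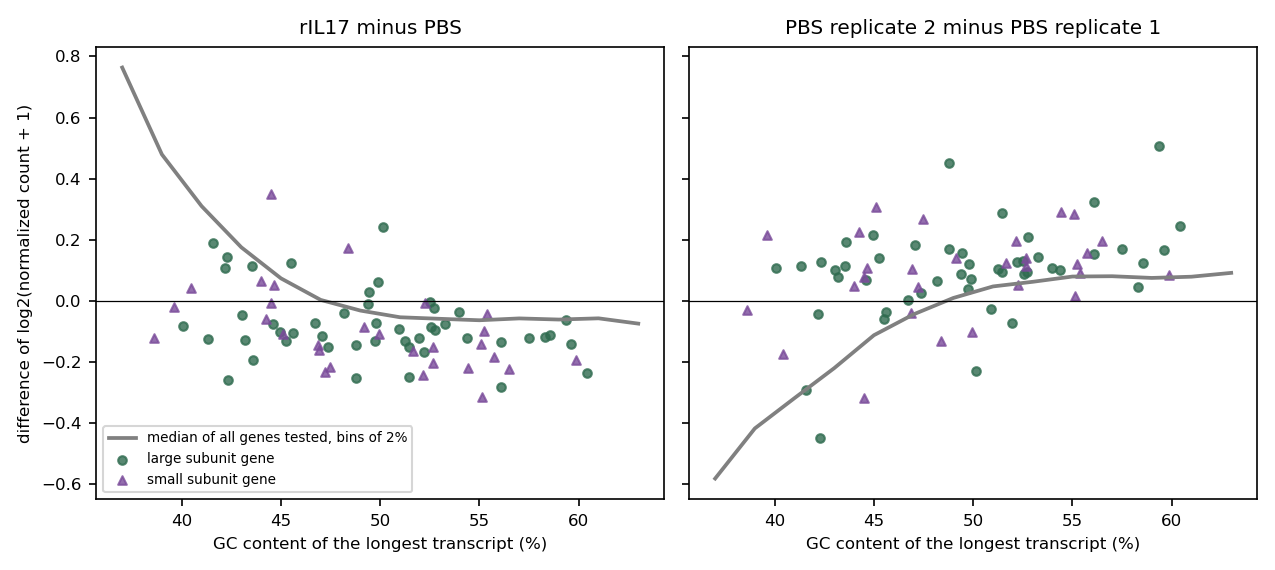
Difference of log2(normalized count + 1) against the GC content of the longest transcript, for rIL17 minus PBS (left) and PBS replicate 2 minus PBS replicate 1 (right); points are members by subunit, and the grey line is the median of all genes tested in bins of GC. Members lie below the line at low GC on the left and above it on the right.

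The RNA partners of these proteins had higher values in rIL17, short of the threshold. mt-Rnr2, the large subunit ribosomal RNA, had 2357 and 2053 normalized counts in rIL17, against 1199 and 778 in PBS (log2 fold change 1.19 ± 0.19, limma adjusted p = 0.0617). mt-Rnr1, the small subunit ribosomal RNA, had 1039 and 967 in rIL17, against 587 and 147 in PBS (1.77 ± 0.56, adjusted p = 0.217). In both, PBS replicate 2 was the lowest library, and without it their median was 0.82. Mitochondrially encoded mRNAs were higher for 12 of 12 tested, with a median of 1.66, and mt-Nd6 and mt-Nd3 passed. Without PBS replicate 2 that median was 1.03. GC content of these genes is low (median 37.4% for the mRNAs), and after GC correction the medians were 0.70 for the ribosomal RNAs and 1.07 for the mRNAs.

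The remaining genes of mitochondrial translation were examined by list, and none passed. Of 5 mitochondrial ribosomal proteins without an Mrp symbol, 2 were higher and 3 lower, and Ptcd3, of the small subunit, had 1070 and 1027 in rIL17, against 1004 and 801 in PBS. Of 24 assembly factors, 16 were lower, with a median log2 fold change of -0.04. Within them, Mtg1, a GTPase of the large subunit, had 280 and 318 in rIL17, against 335 and 390 in PBS, and Mterf3 had 350 and 337 in rIL17, against 316 and 219 in PBS.

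Translation factors were divided, with 7 of 15 tested higher and a median of -0.01, and the ribosome recycling factor Mrrf had 450 and 436 in rIL17, against 488 and 489 in PBS. Of 17 mitochondrial aminoacyl-tRNA synthetases, 10 were lower, with a median of -0.11, and Aars2 had 352 and 325 in rIL17, against 413 and 394 in PBS (-0.25 ± 0.10, limma adjusted p = 0.308). Among 12 genes of mitochondrial transcription and biogenesis, 6 were lower. Gabpa, a subunit of the factor that binds the ETS motif above, had 1639 and 1411 in rIL17, against 1246 and 1121 in PBS (0.36 ± 0.10, adjusted p = 0.172). At an unadjusted limma p below 0.05, 1 gene of this list was higher and 1 lower, beside 16.0% of all genes in either direction. A link between Gabpa and the members was not tested.

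Respiratory chain and cytosolic ribosomal protein genes were also mostly lower in rIL17 and higher in PBS replicate 2 than in PBS replicate 1. Not all lists were: 7 of 15 translation factors and 7 of 17 aminoacyl-tRNA synthetases were higher in PBS replicate 2 than in PBS replicate 1. Nuclear-encoded respiratory chain subunits were lower for 61 of 77 tested (median -0.07), and cytosolic ribosomal proteins for 62 of 80 (median -0.05). PBS replicate 2 exceeded PBS replicate 1 by a median of 0.14 and 0.16 in these lists, and by 0.11 in the mitochondrial ribosomal proteins. Without PBS replicate 2, 33 of 77 and 30 of 80 were lower, with medians of 0.01 and 0.02, beside 49 of 77 and -0.05 for the mitochondrial ribosomal proteins. After GC correction, 38 of 77 and 32 of 80 were lower, with medians of 0.00 and 0.03, beside 57 of 77 and -0.07. Assembly factors, translation factors and aminoacyl-tRNA synthetases also kept negative medians without PBS replicate 2, at -0.02, -0.05 and -0.06. Their medians after GC correction were -0.01, 0.01 and -0.09. Whether the lists differ was not tested.

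**Figure D4:**
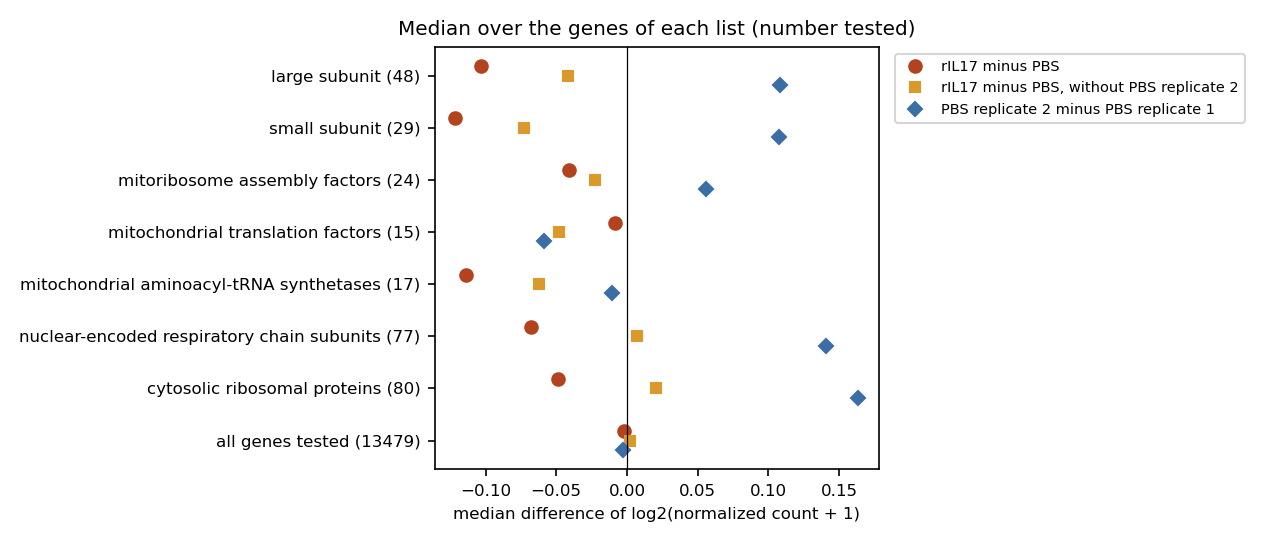
Median difference of log2(normalized count + 1) over the genes of each list, for rIL17 minus PBS with all libraries and without PBS replicate 2, and for PBS replicate 2 minus PBS replicate 1. Both subunits keep negative medians (-0.04 and -0.07) without that library. So do assembly factors (-0.02), translation factors (-0.05) and aminoacyl-tRNA synthetases (-0.06), while respiratory chain and cytosolic ribosomal genes do not.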

How the data were processed

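RNA-seq of 4 libraries was analysed. A directional kit was used on total RNA, per the labels' protocols. CASAVA, HISAT2 2.0.5, featureCounts 1.5.0-p3 and mm10 are named in the submitters' processing notes. The sources used here do not state the strand setting, the annotation release or the scaling tool. The deposited table holds a normalized signal, called normalized counts: 100% of values were whole multiples, within 0.001, of 1 step per library (0.981 to 1.01), so 1 read is worth about 1 unit. Identifiers were matched to GENCODE M21 for 21833 of 21840 genes.

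Genes with a mean of at least 10 were tested with limma 3.58.1 (R 4.3.3), with a trend, on log2(normalized count + 1), a scale that understates changes of low genes. Adjustment was by Benjamini-Hochberg over all 13479 genes. The fit was also run on simulated data, with planted changes larger than the shifts of the members, no deviating library and no GC trend. Its outcome therefore does not bear on shifts of the size seen here. The limma p-values weigh each group difference against the spread between libraries, moderated over all genes tested. That spread may be technical. The alternatives are named in the closing section.

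The members and lists were chosen with earlier results of these data known. Named members are those that passed, the 6 highest and 6 lowest fold changes, the 3 highest and 2 lowest levels per kilobase of exon in each subunit, and 14 chosen by role. In other lists, up to 3 genes with the smallest p qualified. Mrpl13, Mrpl15, Mrpl46, Mrpl54, Mrps9, Mrps16, Mrps25, Mrps27, Mrpl47, Mrpl36 and Mrpl43 and the neighbours given, and mt-Nd6 and mt-Nd3, were named after their values were seen. Sequences are from RefSeq.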

Additional observations from a re-analysis of the deposited data

How the results depend on the processing

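The count of members lower in rIL17 ranged from 47 to 66 over the fits that leave out a library, with or without GC correction, and the median of the members stayed below 0, from -0.160 to -0.036. Their large subunit median ranged from -0.149 to -0.026, the small subunit median from -0.173 to -0.058, and the large minus small difference from 0.014 to 0.063. Genes called over all genes ranged from 1 to 2614 there and members called from 0 to 17, the highest with GC correction and without PBS replicate 1, where 19.3% of all genes were called. These GC fits that leave out a library, and those on the principal transcript, were added after seeing the data.

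With all libraries, the count of genes called, 103 in the reported fit, was 168 with upper-quartile scaling, 0 with no filter and 0 with a mean of at least 1 in a group, and 256 at an adjusted p below 0.1. It was 1124 with the replicate number as a block, 292 with GC correction, 590 with GC correction and the block, and 284 with the principal transcript. Members called were 0 in the reported fit and 1 with the block (Mrpl4, limma adjusted p = 0.0427, with 8.34% of all genes called). They were 1 with GC correction and 4 with GC correction and the block (4.38% of all genes). Those 4 were Mrps9, Mrpl57, Mrpl15 and Mrpl13, all lower in rIL17. Nothing in the labels pairs the replicate numbers, and deviations of same-numbered libraries correlated with r = 0.13 over 13479 genes. The large subunit median was -0.043 with GC correction, with or without the block, and -0.038 with the principal transcript, where the difference between subunits was 0.044.

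GC correction, with or without the block, turned the sign of Mrpl50 (-0.069), Mrpl1 (-0.073), Mrpl52 (0.018), Mrpl32 (-0.113), Mrps30 (-0.315), Mrpl58 (0.0087) and Mrps18a (0.012). With the principal transcript, Mrpl50 (-0.112), Mrpl1 (-0.126), Mrpl52 (0.017), Mrpl32 (-0.156), Mrps30 (-0.082) and Mrps18a (0.0025) turned. Leaving out a library alone turned the sign of 8 named members, whose ranges with and without GC correction were Mrps22 -0.0089 to 0.403, Mrpl32 -0.275 to 0.253, Mrps30 -0.397 to 0.128, Mrps34 -0.420 to 0.116, Mrpl50 -0.207 to 0.366, Mrps24 -0.283 to 0.040, Mrpl12 -0.297 to 0.066 and Mrpl11 -0.368 to 0.118. Another 8 kept their sign in the uncorrected fits that leave out a library and turned in some with GC correction as well, with ranges of Mrpl1 -0.141 to 0.336, Mrpl2 -0.214 to 0.052, Mrpl52 -0.137 to 0.053, Mrpl58 -0.133 to 0.037, Mrps2 -0.173 to 0.062, Mrpl34 -0.141 to 0.046, Mrpl44 -0.157 to 0.070 and Mrps18a -0.160 to 0.044. Of 589 values of named members over 19 alternatives, 489 kept their sign and side of the threshold, 81 turned and 19 newly passed. The causes were not tested. The planned edgeR and DESeq2 fits were not run: whole reads could be recovered, but the steps lie too near 1 to tell them from rounded values by the criterion used for count tests. With 2 libraries per group the limma intervals of single members were wider than their shifts for all 77.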

Other observations

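Processed pseudogenes of the members were counted below their parent genes. Mrpl48-ps had 71.4 and 64.2 normalized counts in rIL17, against 63.8 and 158 in PBS, the last being PBS replicate 2, in which Mrpl48 itself was lowest. Mrpl23-ps1 had 17.1 and 10.0 in rIL17, against 2.94 and 21.9 in PBS. How reads were divided between these copies and their parent genes was not tested.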
